A study of Phalaenopsis aphrodite with 54 samples.

Results

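Flowers of the moth orchid hybrid V3 (*Phalaenopsis* Sogo Yukidian 'V3', a tetraploid) were compared 3 days and 1 day after pollination. All arrays of RNA amplified before labelling that the labels give as V3 flowers of either day were taken, which were 2 arrays for day 3 and 2 arrays for day 1, of 54 arrays in all. Both groups had been pollinated, so the comparison covers the step from day 1 to day 3 and holds no unpollinated flower. The labels call the tissue flower and name no organs, and they do not say how many plants or flowers were pooled, or where the pollen came from. The array carried probes for 43662 transcript contigs (PATC numbers) assembled from *P. aphrodite*, so the hybrid was measured with probes of another genotype. The other amplified arrays of the study were used to normalise the intensities, to estimate the spread and to place the contigs. Among them were buds, mature flowers, later days and single floral organs of V3, and tissues of *P. aphrodite*.

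In orchids, pollination starts a programme in which the perianth (sepals, petals and lip) fades, the ovary grows and its ovules mature, while pollen tubes from the pollinia, the waxy pollen masses, grow down the column, the fused style and stamen of the orchid flower. Ethylene and auxin are known to pass the signal between the organs. The identity of floral organs is set by MADS box transcription factors, which the ABCDE model sorts into classes: in *Arabidopsis*, A and E genes act in sepals, A, B and E genes in petals, B, C and E genes in stamens, C and E genes in carpels, and D genes in ovules.

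Intensities are given on the log2 scale after quantile normalisation among 41 amplified arrays, with a floor of 20 on the intensity. The 75th percentile of the intensities was 6384 and 5840 on the day 3 arrays, against 6426 and 6437 on the day 1 arrays, and the spots well above background were 78.1% and 76.0% of all on day 3, against 75.6% and 74.6% on day 1. Values of the day 3 arrays correlated at 0.998 with each other, those of the day 1 arrays at 0.999, and those between days at 0.974 to 0.975. The arrays of a day differed by no more than the spots of a probe differ, so the 2 arrays of each day were counted as 1 sample and averaged. Standard errors and p-values therefore rest on the spread of 7 other conditions whose arrays did differ. These were petals, lips, sepals and columns of V3, and inflorescences, young inflorescences and buds of *P. aphrodite*. None was a whole V3 flower, and V3 flowers of a single day were assumed to vary like those conditions. A contig at the floor in some of these organs shows no spread there, so its standard error can be too small. *PaAP2-7* and *PaMδS-1* lay at the floor in sepals, petals, lips and columns, and *PaMTN3* in sepals, petals and columns. Their small standard errors and p-values below carry this limit. Both day 1 arrays lay on 1 slide, with no other array used here on that slide or in that scan, and the day 3 arrays lay on 2 other slides, so slide, scan and day cannot be told apart. The mean log2 signal of 7 spike-in probes was 12.24 and 12.15 on the day 3 arrays, against 15.09 on both day 1 arrays, in a range of 10.74 to 16.43 over 41 arrays; the spike-ins were not used for scaling, and every difference below is relative to the other contigs of the array. A probe for an orchid virus, Cymbidium mosaic virus, was above background on all day 1 spots and on 1 of 4 day 3 spots; its part in the differences between the days was not tested.

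Of 31203 contigs tested, 635 (2.04%) differed by over 4-fold between day 3 and day 1 at an adjusted p under 0.05 in limma. Of these, 426 (1.37% of the contigs tested) were higher on day 3 and 209 (0.670%) were lower. The median called contig differed by 5.52-fold among the higher and by 5.50-fold among the lower ones. More than 8-fold differences were found for 80 higher and 54 lower contigs, and more than 16-fold for 18 higher and 21 lower contigs, so the lower contigs were fewer but held more of the widest differences. Relative to the other contigs, most differed little: the quartiles over all contigs tested were -0.31 and 0.31 on the log2 scale. The 1st percentile was -1.80 and the 99th percentile 2.23. The median was -0.01, which quantile normalisation largely fixes in advance. A smaller difference was common, since 8394 contigs (26.9%) passed an adjusted p under 0.05 whatever the fold. Of these, 4670 contigs (15.0%) were higher and 3724 (11.9%) lower, and the median standard error over all contigs was 0.17. The share of higher contigs among the calls depended on the scaling. With each array scaled to its 75th percentile, 780 contigs were called, 634 higher and 146 lower (81.3% higher, against 67.1% with quantile normalisation). The log2 values that the authors deposited differ from the intensities by 1 constant for each array. This is a scaling of the same kind and no separate check. The deposited values gave 780 calls, 631 higher and 149 lower. Normexp background correction called 337. In bulk samples such as these, fewer cells of a type and less RNA per cell cannot be told apart.

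**Figure D1:**
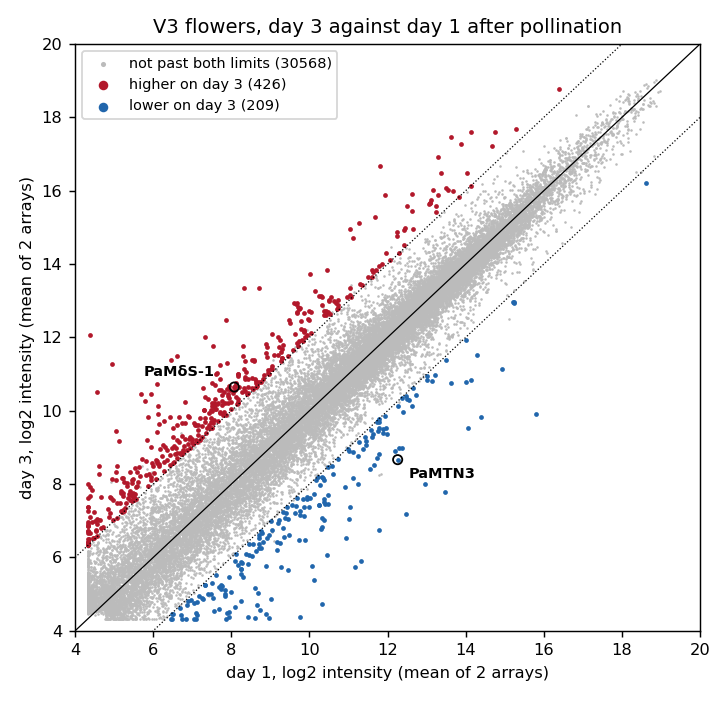
Mean log2 intensity of 31203 contigs on day 3 (vertical axis) against day 1 (horizontal axis), each the mean of 2 arrays. The solid line marks equal levels and the dotted lines 4-fold differences; red points are the 426 contigs called higher on day 3 and blue points the 209 called lower, and *PaMδS-1* and *PaMTN3* are ringed.

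The files do not pair contigs with gene names, so genes are named below only where the study names the contig, and a pair of contigs in each direction stands for the widest differences among those above background on all 4 arrays. PATC128122 was at 11.30 and 11.24 on day 3, against 5.02 and 4.88 on day 1. The contig was 80.0-fold higher on day 3 (log2 difference 6.32 ± 0.15 SE, adjusted p = 4.26e-08 in limma), and its second probe differed by 4.83. Its level was 8.89 on day 8, 4.61 on day 15 and 5.59 in mature flowers, so day 3 stood above each of the other V3 flower stages. Among single organs PATC128122 was highest in the lip, at only 7.29, and next in the column, at 6.93. PATC136982 was at 13.36 and 13.35 on day 3, against 8.35 and 8.32 on day 1 (log2 difference 5.02 ± 0.49 SE, adjusted p = 8.99e-05), and it stayed at 13.14 on day 8 and 13.09 on day 15. In the opposite direction, PATC138068 was at 9.95 and 9.88 on day 3, against 15.78 and 15.81 on day 1 (log2 difference -5.88 ± 0.16 SE, adjusted p = 7.40e-08). In single organs this contig was at 18.51 in the lip and 18.27 in the column, and at 8.57 in the pedicel and 6.63 in pollinia. PATC160059 was at 7.77 and 7.81 on day 3, against 13.45 and 13.51 on day 1 (log2 difference -5.69 ± 0.15 SE, adjusted p = 5.43e-08). Among single organs PATC160059 was highest in the column, at 9.42, which is below its level on day 1. Over the stages it was at 11.34 in small buds, 7.48 in mature flowers, 10.88 on day 8 and 5.84 on day 15.

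Of the 45 contigs that the study names, 44 were tested and 1, *PaAP3-1*, is not analysed here. At an adjusted p under 0.05 in limma, 14 rose on day 3, 13 fell and 17 did not pass, where 15.0% of all contigs tested rose and 11.9% fell by the same rule. Past 4-fold were 1 that rose, *PaMδS-1*, and 3 that fell, *PaMTN3*, an acyltransferase (PATC196836) and a zinc finger protein (PATC149247). The median difference over the 44 contigs was 0.11. The study chose these contigs mostly for their pattern over the organs of V3 in these data, so they do not stand for the flower transcriptome. A ubiquitin contig (PATC150470) differed by -0.05 and an actin contig (PATC135993) by -0.04, and neither passed the test.

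The widest difference among the named contigs was that of *PaMTN3*, which belongs to the MtN3 family, known in other plants for sugar transporters of the SWEET type. Its signal was 8.66 and 8.67 on day 3, against 12.27 and 12.25 on day 1. *PaMTN3* was thus 12.1-fold lower on day 3 (log2 difference -3.59 ± 0.08 SE, adjusted p = 4.26e-08 in limma), and its second probe differed by -3.66. In single organs *PaMTN3* stood at 16.72 in the lip and at the floor of 4.32 in sepals, petals, pollinia, columns and pedicels. Over the stages of the whole flower it was at the floor in small and large buds, at 16.20 in mature flowers, and at 4.38 on day 8 and 4.32 on day 15. Days 3 and 1 thus both lay between the level of day 8, near the floor, and that of mature flowers.

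Other contigs that the study names and that were highest in the lip also fell, except *PaAP3-3*. *PaZF*, a zinc finger protein, was at 10.86 and 10.78 on day 3, against 12.80 and 12.83 on day 1, and fell by 1.99 on the log2 scale (SE 0.18, adjusted p = 5.93e-05 in limma). Over the stages *PaZF* was at 11.38 in mature flowers, 12.21 on day 8 and 11.11 on day 15, each above its level on day 3. *PaAGL6-1*, the AGL6 gene of the lip, was at 12.75 and 12.74 on day 3, against 13.48 and 13.51 on day 1, and fell by 0.75 (SE 0.11, adjusted p = 0.00124). *PaAP3-4*, a class B gene at 14.81 in petals, 15.40 in the lip and 13.72 in the column, fell to 11.17 and 11.15 on day 3, against 12.58 and 12.59 on day 1. *PaAP3-4* differed by -1.43 (SE 0.22, adjusted p = 0.00145). The arrays of the days did not overlap for these contigs, nor for 90.4% of all contigs tested, so this says nothing particular about them. *PaAP3-3*, the other class B gene with its highest level in the lip, was at 10.86 and 10.84 on day 3, against 10.73 and 10.71 on day 1, and did not pass the test (adjusted p = 0.689).

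Both MADS box contigs of the Mδ type, which the study names for pollinia, rose. *PaAP1-1*, a further MADS box contig highest in pollinia, had probes that went opposite ways and is given below with its class. *PaMδS-1* is a MADS box gene of the Mδ type, whose *Arabidopsis* relatives act in pollen. It was at 10.63 and 10.66 on day 3, against 8.10 and 8.05 on day 1, and was 5.95-fold higher on day 3 (log2 difference 2.57 ± 0.09 SE, adjusted p = 1.96e-07 in limma). Its second probe differed by 2.22. In single organs *PaMδS-1* stood at 15.61 in pollinia and at the floor in sepals, petals, lips, columns and pedicels, and over the stages it was at 5.64 in mature flowers and 14.41 on day 15. *PaMδP-1*, of the same type, was at 12.30 and 12.31 on day 3, against 11.19 and 11.17 on day 1, and rose by 1.13 (SE 0.11, adjusted p = 8.01e-05).

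Of 4 named transcription factors outside the MADS box family that are highest in pollinia, 3 rose. *PaAP2-7*, of the AP2 family, was at 11.04 and 10.98 on day 3, against 9.51 and 9.46 on day 1 (log2 difference 1.53 ± 0.07 SE, adjusted p = 1.23e-06 in limma). *PabZIP-2*, a basic leucine zipper factor, was at 11.69 and 11.64 on day 3, against 10.30 and 10.32 on day 1 (1.36 ± 0.15 SE, adjusted p = 0.000188). *PaMYB-2* rose by 0.79 (SE 0.21, adjusted p = 0.0233), with 9.83 and 9.86 on day 3, against 9.05 and 9.06 on day 1. *PabHLH-3*, a basic helix-loop-helix factor, was at 10.97 and 10.92 on day 3, against 11.09 and 11.10 on day 1, a difference of -0.15 that did not pass (adjusted p = 0.335). These pollinia contigs did not share 1 course over the stages: *PaMδS-1* was highest on day 15 among the stages, whereas *PaAP2-7* was at 12.89 in large buds, 10.21 on day 8 and 10.25 on day 15.

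Of the 21 MADS box contigs tested, 8 rose, 4 fell and 9 did not pass, with a median difference of 0.43, against -0.01 over all contigs. In class B, known in *Arabidopsis* for petals and stamens, the direction was mixed. *PaAP3-2* was at 12.57 in sepals, 12.52 in petals, 12.38 in the column, 12.01 in the lip and 11.61 in the pedicel. In whole flowers *PaAP3-2* was at 14.15 and 14.16 on day 3, against 12.80 and 12.81 on day 1, and rose by 1.35 (SE 0.17, adjusted p = 0.000439 in limma). *PaPI-1*, the partner gene of the class, was at 13.92 and 13.94 on day 3, against 14.46 and 14.44 on day 1, and fell by 0.52 (SE 0.10, adjusted p = 0.00369). Within class B, 1 of 4 contigs thus rose, 2 fell and 1 did not pass.

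In class A, 2 of 4 contigs rose and 1 fell. *PaAGL6-2*, present in all floral organs with its highest level in the pedicel, was at 15.59 and 15.57 on day 3, against 14.61 and 14.62 on day 1, and rose by 0.96 (SE 0.11, adjusted p = 0.000181 in limma). *PaAP1-1*, highest in pollinia and the pedicel, was at 10.81 and 10.84 on day 3, against 8.98 and 9.05 on day 1, by its brighter probe (1.81 ± 0.10 SE, adjusted p = 3.05e-06), whereas its other probe differed by -0.56 and did not pass, so the direction of *PaAP1-1* rests on the probe. *PaAP1-2*, a pedicel contig, was at 9.77 and 9.71 on day 3, against 9.31 on both arrays of day 1, and did not pass (0.43 ± 0.23 SE, adjusted p = 0.215); scaled to the 75th percentile it passed (0.65, adjusted p = 0.0367).

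In class C/D, known in *Arabidopsis* for stamens, carpels and ovules, 2 of 6 contigs rose and none fell. *PaAG-3*, a column contig, was at 13.46 and 13.51 on day 3, against 12.83 on both arrays of day 1 (0.66 ± 0.15 SE, adjusted p = 0.00987 in limma). PATC209388, annotated as AG-like, was at 11.73 and 11.76 on day 3, against 11.04 and 11.03 on day 1 (0.72 ± 0.15 SE, adjusted p = 0.0064). The differences of *PaAG-1*, *PaAG-2*, *PaAG-4* and PATC119249 were 0.46, -0.09, 0.41 and 0.66, and none passed. PATC119249 passed when scaled to the 75th percentile (0.70, adjusted p = 0.0429) and with normexp (0.61, adjusted p = 0.0447). *PaAG-4*, the class D gene of the pedicel, had a wide standard error of 0.35 beside its 0.41. The class E genes *PaSEP-1*, *PaSEP-2* and *PaSEP-3*, cofactors of the other classes, differed by 0.17, 0.01 and 0.09 and none passed; *PaSEP-2* turned to -0.028 with normexp and to -0.0026 without the second day 3 array.

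Outside the ABCDE classes, *PaSOC1-3*, a relative of a flowering time gene of *Arabidopsis*, was at 12.72 on both arrays of day 3, against 12.21 and 12.22 on day 1, and rose by 0.50 (SE 0.12, adjusted p = 0.0148 in limma). PATC198032, a MADS box contig highest in petals, was at 11.01 and 11.06 on day 3, against 11.61 on both arrays of day 1, and fell by 0.58 (SE 0.17, adjusted p = 0.0315); scaled to the 75th percentile it differed by -0.50 and did not pass (adjusted p = 0.0598). Of 2 KNOX homeobox contigs, a family that keeps meristems undifferentiated in other plants, PATC145786 was at 10.87 and 10.96 on day 3, against 10.51 and 10.49 on day 1 (0.42 ± 0.11 SE, adjusted p = 0.0238), with a second probe that differed by -0.09. PATC145786 no longer passed with a floor of 5 (adjusted p = 0.364), with the mean of its probes (0.16, adjusted p = 0.537), or with slide (adjusted p = 0.149) or scan batch (adjusted p = 0.0987) as a random block. PATC127065 was at 13.33 and 13.31 on day 3, against 12.65 and 12.67 on day 1, and did not pass (0.66 ± 0.36 SE, adjusted p = 0.221); it passed with normexp (0.65, adjusted p = 0.0240) and by its dimmer probe (0.72, adjusted p = 0.00226).

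The 5 other transcription factors, each highest in sepals or petals among the organs, moved both ways. *PabZIP-3* was at 16.18 and 16.16 on day 3, against 14.44 and 14.39 on day 1, and was 3.38-fold higher on day 3 (log2 difference 1.76 ± 0.12 SE, adjusted p = 9.94e-06 in limma). *PaMYB-4* was at 12.01 and 11.96 on day 3, against 13.53 and 13.51 on day 1, and fell by 1.53 (SE 0.12, adjusted p = 1.90e-05). *PabHLH-1* was at 10.94 and 10.89 on day 3, against 12.29 and 12.30 on day 1, and fell by 1.38 (SE 0.09, adjusted p = 1.01e-05). The organ arrays showed where each was found: *PabZIP-3* was highest in sepals at 14.74, and *PaMYB-4* lay between 16.30 and 16.90 in the 5 organs other than pollinia, where it was at the floor. *PaAP2-5* and *PaNAC-3*, whose NAC family holds senescence regulators in other plants, differed by -0.63 and -0.26 and did not pass (adjusted p = 0.0795 and 0.640).

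Of the enzymes and other proteins, the 2 acyltransferase contigs went apart. PATC134853, at 13.33 in sepals and 13.15 in petals, was at 12.67 and 12.57 on day 3, against 11.69 and 11.70 on day 1, and rose by 0.92 (SE 0.18, adjusted p = 0.00451 in limma). PATC196836 was at 6.89 and 6.72 on day 3, against 9.38 and 9.29 on day 1, and was 5.76-fold lower on day 3 (-2.53 ± 0.15 SE, adjusted p = 3.90e-06). It was above background on all 4 arrays, and over the stages it was at 7.14 in mature flowers, 10.70 on day 8 and 6.60 on day 15, so its course went up and down.

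Phenylalanine ammonia-lyase (PATC156804), the first enzyme of the phenylpropanoid pathway, was at 11.90 and 11.89 on day 3, against 12.62 and 12.61 on day 1, and fell by 0.72 (SE 0.12, adjusted p = 0.00193 in limma). Of 2 contigs of tyrosine decarboxylase, which makes tyramine, PATC149447 was at 7.14 and 7.21 on day 3, against 8.19 and 8.20 on day 1, and fell by 1.02 (SE 0.12, adjusted p = 0.000352), while PATC138942 differed by -0.52 and did not pass (adjusted p = 0.0795). Both were highest in pollinia among the organs, unlike the pollinia factors above that rose. The zinc finger contig PATC149247 was at 10.41 and 10.39 on day 3, against 12.45 and 12.50 on day 1 (-2.07 ± 0.31 SE, adjusted p = 0.00105), and the anther-specific proline-rich protein PATC147735 was at 11.17 and 11.19 on day 3, against 12.92 and 12.95 on day 1 (-1.75 ± 0.40 SE, adjusted p = 0.0112). These last contigs, both highest in petals, were lower still in mature flowers, at 7.44 and 8.42. The leucine-rich repeat kinase PATC139333 differed by 0.82 and did not pass (SE 0.34, adjusted p = 0.110); scaled to the 75th percentile it passed (1.07, adjusted p = 0.0403).

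**Figure D2:**
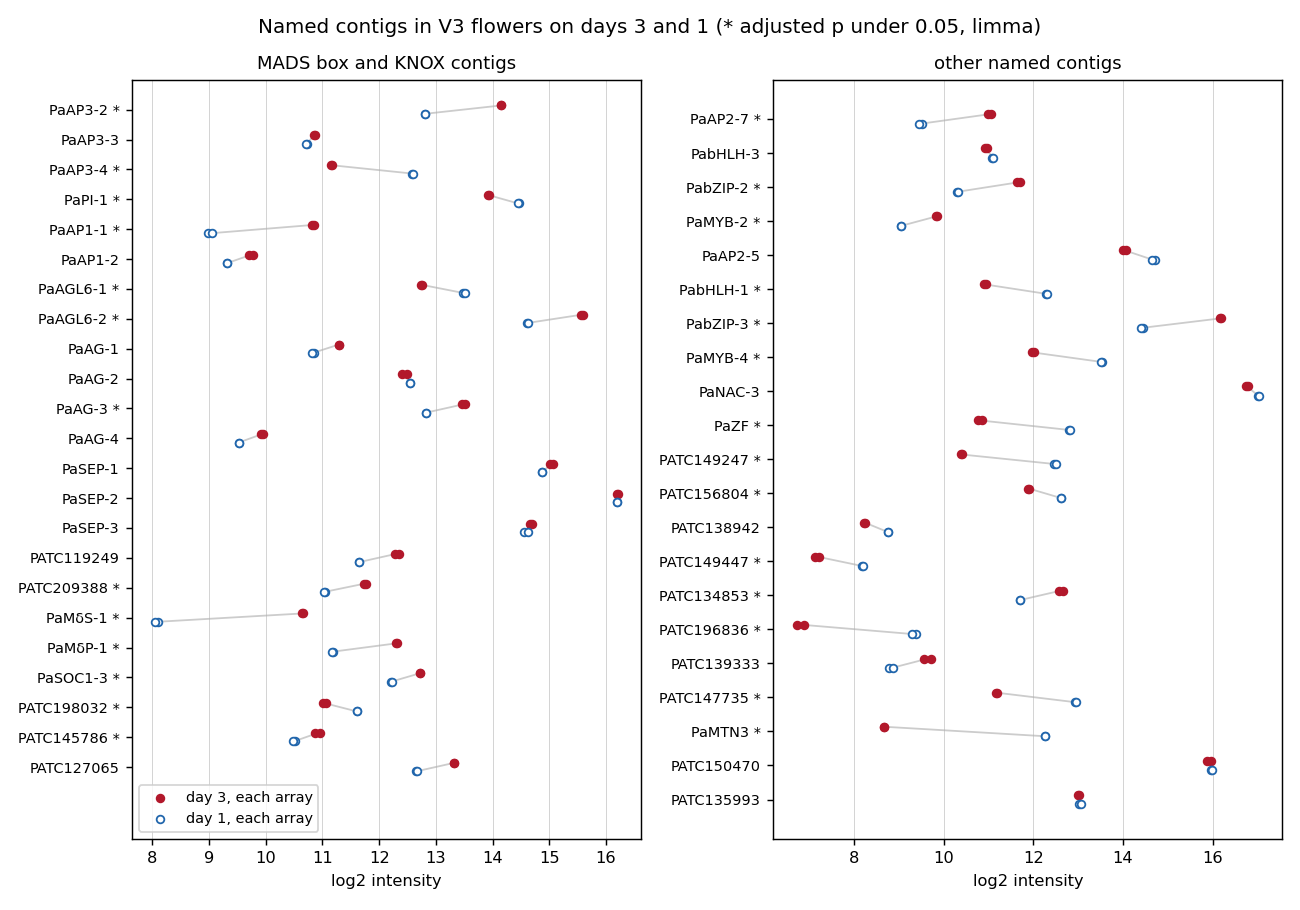
Log2 intensity of 44 named contigs on each array, with day 3 (filled red) above day 1 (open blue) in each row and a grey line joining the means; a star marks an adjusted p under 0.05 in limma. The arrays of a day lie close together in every row, and *PaMTN3* and *PaMδS-1* have the longest lines to the left and right of day 1.

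To see which organs the changing contigs belonged to, each contig was set against the arrays of single V3 organs, which are not among the 4 arrays compared, and was called an organ contig where 1 organ was at least 4-fold above each of the other 5. Of 4693 pollinia contigs on the array, 3926 were tested, and 204 of these (5.20%) were called higher and 25 (0.637%) lower on day 3. Pollinia contigs made up 47.9% of the contigs called higher and 12.6% of those tested, and their median difference was 0.31. Of 275 pedicel contigs on the array, 240 were tested, with 21 (8.75%) called higher and 6 (2.5%) lower and a median of 0.63. Lip contigs went the other way: of 82 on the array, 77 were tested, with 3 (3.90%) called higher and 10 (13%) lower, and a median of -0.91. Of 116 column contigs tested, 7 (6.03%) were called higher and 5 (4.31%) lower, beside 1.37% and 0.670% of all contigs, and their median was 0.05, so the column set held calls in both directions. The sepal set (22 tested, 0 higher, 1 lower, median -0.41) and the petal set (7 tested, 0 higher, 1 lower, median 0.27) were small. Contigs of no single organ, 26815 of those tested, had 191 higher and 161 lower calls and a median of -0.04.

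A contig can enter the test through the day on which it is bright, so the same was counted over contigs above background on all 4 arrays. Of 3491 such pollinia contigs 178 were called higher and 23 lower (median 0.26), of 215 pedicel contigs 18 and 4 (median 0.63), and of 68 lip contigs 3 and 9 (median -0.91), beside 376 and 185 of 29711 contigs of any kind (median -0.02). Over every member on the array, dim ones included, the medians were 0.16 for pollinia, 0.47 for pedicels and -0.89 for lips. Scaling to the 75th percentile moved the median of all contigs to 0.09 and those of pollinia and pedicel contigs to 0.56 and 0.81, while that of lip contigs was -0.93. Of the contigs called lower, 64 (30.6%) had their highest organ level in the lip, against 10.0% of the contigs tested. Of those called higher, 92 (21.6%) had it in the pedicel, against 10.9% of those tested. Pollinia were the highest organ for 55.9% of the higher and 20.1% of the lower calls, against 37.6% of those tested. For sepals these shares were 5.63% and 15.8%, against 9.13%. For petals they were 4.93% and 12%, against 12.8%, and for the column 6.81% and 12.4%, against 19.6%.

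**Figure D3:**
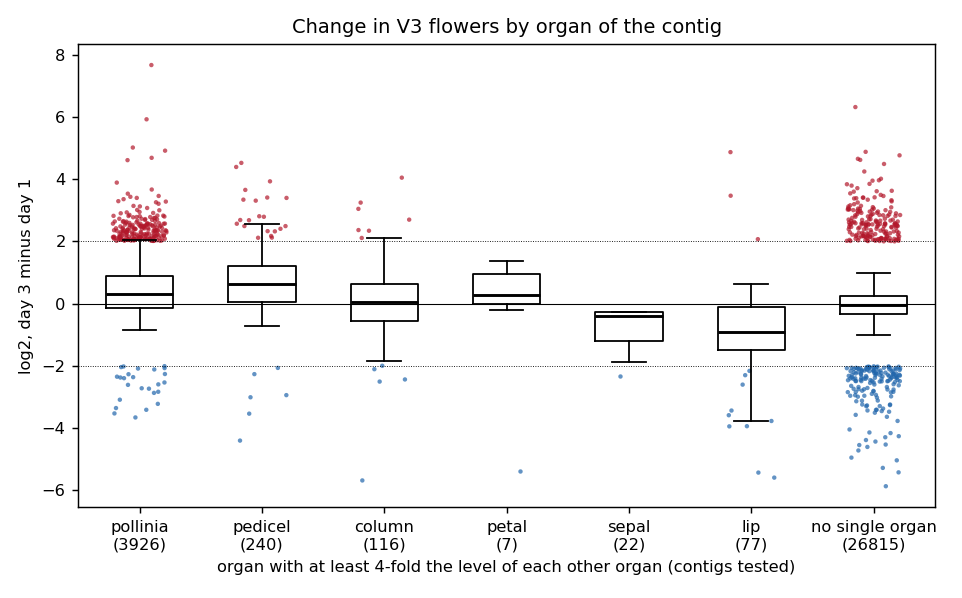
Log2 difference, day 3 minus day 1, of the contigs tested, by the organ in which they were at least 4-fold above each other organ, with the number tested under each organ. Boxes give the quartiles and the median, whiskers the 5th and 95th percentiles, and points the contigs called higher (red) or lower (blue); the median lies at 0.63 for pedicel, 0.31 for pollinia and -0.91 for lip contigs.

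Levels were also read for short lists of contigs that the study names in connection with 1 or more organs. The summed level of 6 pollinia contigs was 13.87 and 13.85 on day 3, against 12.83 on both arrays of day 1. Some of these were also present in the other organs, so the sum is not a level of pollinia alone. Outside pollinia *PaMδP-1* was at 10.58 to 11.06, *PabZIP-2* at 9.57 to 10.16 and *PabHLH-3* at 9.44 to 11.34. The tyrosine decarboxylase contigs, also highest in pollinia, were not in this list and did not rise (-1.02 and -0.52). The summed level of 5 class C/D contigs, highest in the column and next in the pedicel, was 14.75 and 14.80 on day 3, against 14.32 and 14.31 on day 1. The single pedicel marker, *PaAG-4*, was at 9.95 and 9.91 on day 3, against 9.52 and 9.53 on day 1. *PaAGL6-1*, highest in the lip at 16.11 and next in the pedicel at 12.27, was lower on day 3, as given above. PATC198032, the only contig listed for sepals and petals, was also lower, but it marks no single organ, with 13.61 in petals, 12.32 in sepals, 11.75 in the column and 11.40 in the pedicel. Of the 4 named contigs highest in sepals, *PabZIP-3*, *PaAP3-2* and the acyltransferase PATC134853 rose by 1.76, 1.35 and 0.92, and *PaNAC-3* did not pass. None of these marks sepals alone. In the same order they were at 14.74, 12.57, 13.33 and 14.69 in sepals, against 14.06, 12.52, 13.15 and 14.42 in petals. The part that a different make-up of the flowers sampled had in the differences of single contigs was not tested.

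The levels of the called contigs at the other stages came from arrays outside the comparison. The 426 higher contigs had a median level of 6.91 in mature flowers, 7.54 on day 1, 10.20 on day 3, 11.05 on day 8 and 10.95 on day 15, and in buds their medians were 7.70 and 8.52. The 209 lower contigs had medians of 8.98 in mature flowers, 9.77 on day 1, 7.02 on day 3, 7.22 on day 8 and 7.13 on day 15. The median of all contigs tested stayed between 11.07 and 11.21, which quantile normalisation of the arrays largely fixes in advance. The sets were chosen by their difference between days 3 and 1, so their levels on those days are a description. The medians of days 8 and 15 lay nearer to that of day 3 than to that of day 1 in both sets, but single contigs departed from this, such as PATC128122 at 4.61 on day 15 and PATC196836 at 10.70 on day 8.

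The next counts use no array of day 1 or day 3, but their contigs were chosen on those days. Some contigs entered the test only through 1 of those days. The counts were not repeated over contigs above background on all 4 arrays. Set against mature flowers, 310 of the 426 higher contigs (72.8%) were over 4-fold higher on day 8 and 8 were over 4-fold lower. Of all contigs tested, 9.28% were higher and 4.83% lower. On day 15, 279 (65.5%) were higher, against 10.7% of all contigs. Of the 209 lower contigs, 91 (43.5%) were over 4-fold lower on day 8 than in mature flowers and 95 (45.5%) on day 15. Of all contigs tested, 4.83% and 6.03% were over 4-fold lower on these days. Among the lower contigs 23 (11%) and 22 (10.5%) were over 4-fold higher, near the 9.28% and 10.7% of all contigs. The day 8 arrays lay on the same slides as the day 3 arrays, 1 of the day 15 arrays lay on 1 of these slides, and the mature flowers lay on a further slide. The labels do not say whether flowers of different stages came from the same plants. The 4 probes for Odontoglossum ringspot virus, another orchid virus, were above background on all 16 spots in mature flowers, on 1 of 16 on day 3 and on none on days 1, 8 and 15, and Cymbidium mosaic virus gave signal in mature flowers as on day 1. Their part in the differences from mature flowers was not tested.

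**Figure D4:**
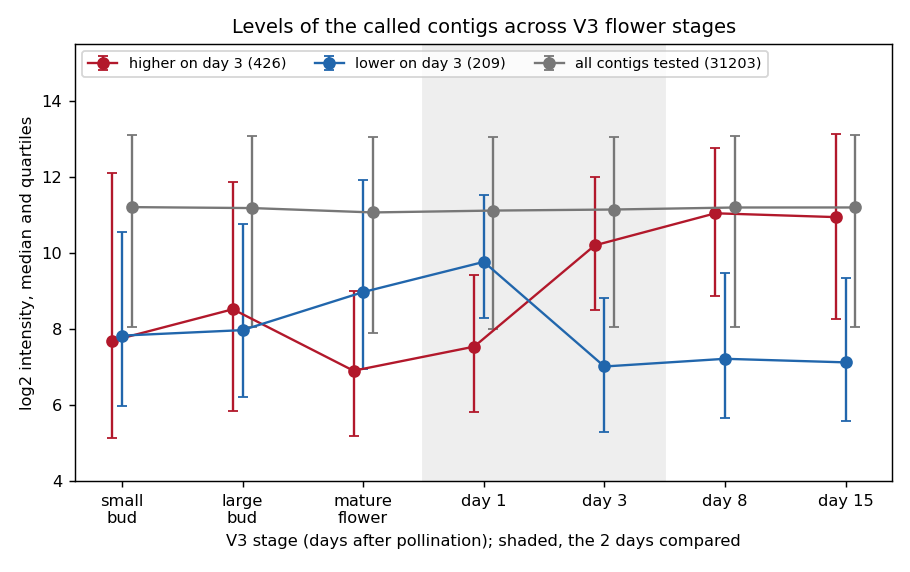
Median log2 intensity, with quartiles as bars, of the 426 contigs called higher on day 3 (red), the 209 called lower (blue) and all 31203 contigs tested (grey) over 7 stages of V3 flowers, with days 1 and 3 shaded. The red medians are 10.20 on day 3 and 11.05 on day 8, against 7.54 on day 1, and the blue ones 7.02 and 7.22, against 9.77.

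**Figure D5:**
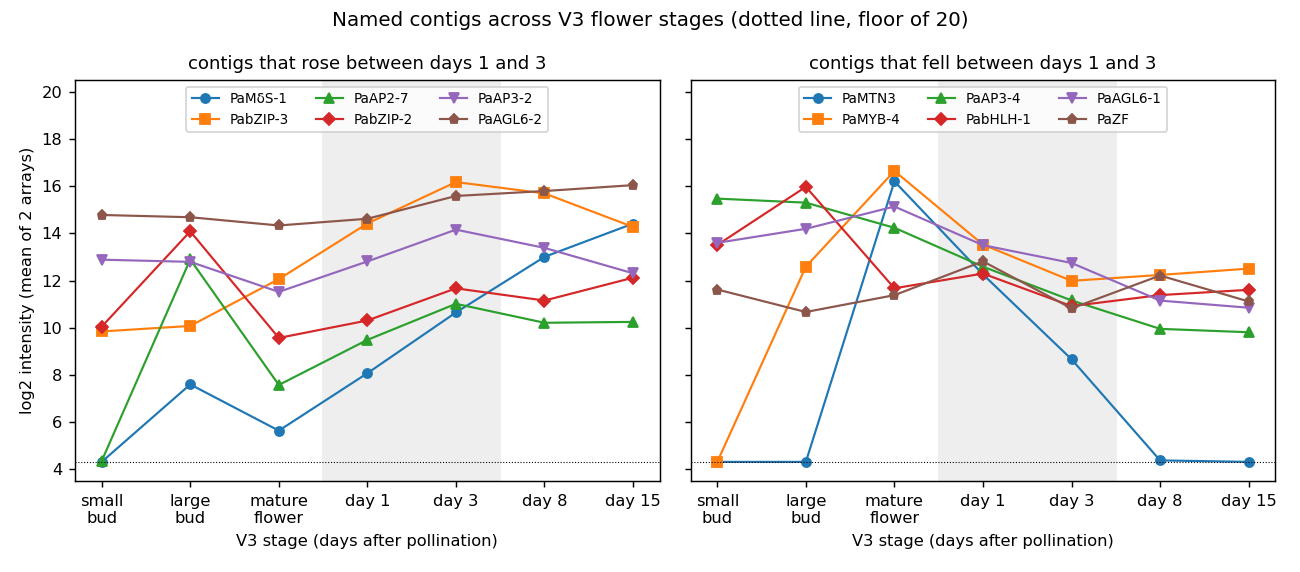
Log2 intensity, mean of 2 arrays, of 6 named contigs that rose (left) and 6 that fell (right) between days 1 and 3, over 7 stages of V3 flowers; the dotted line is the floor of 20 and the shaded part holds days 1 and 3. *PaMδS-1* lies at 14.41 on day 15 and *PaMTN3* at the floor, against 5.64 and 16.20 in mature flowers.

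Contigs with 2 probes gave a check within the arrays. Of 317 called contigs with 2 probes, both probes gave the same direction for 311, the second probe was also over 4-fold for 255, and 6 went opposite ways. Over 21226 contigs with 2 probes the differences of the probes correlated at 0.884; this is across contigs of the same 4 arrays, and contigs are not replicates. Dim contigs were more frequent among the calls than among all contigs: 561 of the 635 called contigs (88.3%) were above background on all 4 arrays, against 29711 of the 31203 tested (95.2%). Of the contigs called higher, 38 were above background on no day 1 array, and of those called lower, 9 were above background on no day 3 array, so that their level on the dim day is only a bound.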

How the data were processed

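Arrays held 1 Cy3-labelled sample each. The authors deposited the processed intensity of each spot, corrected for background and trends by Feature Extraction 10.7.1.1, and a table of log2 values. Checked over 67038 probes, the deposited log2 values were those intensities, set to at least 20 and averaged per probe, less 1 constant for each array (largest departure 2.71e-06); quantile normalisation, which the methods name, was not applied to them. Here the intensities of 134076 spots on 41 amplified arrays were given a floor of 20, put on the log2 scale and quantile normalised, outlier spots left out, spots averaged, and the brightest probe of a contig kept (23376 contigs had 2). Contigs entered the test if at least 0.5 of the spots of the probe were well above background on every array of day 3 or of day 1.

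Arrays were counted as 1 sample where their differences at 1 spot of a probe correlated under 0.1 with those at the other spot (day 3, 0.015; day 1, -0.026). This held for 13 of 20 conditions and left 27 replicates; nothing in the labels says whether arrays came from separate plants, and p-values measure only the spread between these samples. limma 3.58.1 in R 4.3.3 was fitted with 1 coefficient per condition (9.01 degrees of freedom, prior included), two-sided, with Benjamini-Hochberg adjustment over all contigs tested. Called contigs passed an adjusted p of 0.05 and 4-fold; "rose" and "fell" of single contigs need the adjusted p only. The number of arrays limits the precision.

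Named were all contigs the study names and the 2 per direction with the widest difference among those above background on all 4 arrays and, where a contig had 2 probes, with both in the same direction. The comparison, the contigs and the lists were chosen with earlier results of these data known. Alternatives were other scalings, background corrections, floors, filters, probe rules, fits, blocks, thresholds and the leaving out of each array. Fits were tested on simulated data. The 13 unamplified arrays were not used. No sequences or annotation of the contigs were used here.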

Additional observations from a re-analysis of the deposited data

Results flagged for a closer look

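A signal outside the contigs compared came from the array's probes for Cymbidium mosaic virus. The fourth of these probes had a mean intensity of 370.8 over the 4 spots of day 1 (358.2 to 375.6), all well above background. On day 3 the intensity was 820.0 on 1 spot, well above background, and 4.44 to 5.87 on the other 3, which were not. Mature flowers had 520.1 to 558.6 on all 4 spots, and the spots of days 8 and 15 lay between 6.43 and 12.3, none above background. The third probe was above background on 0 of 4 spots on day 3 (5.28 to 7.12), against 3 of 4 spots on day 1 (35.6 to 38.7). The first and second probes were above background on no spot of either day. The signal of Cymbidium mosaic virus thus went with day 1 in the comparison. A signal also came from Odontoglossum ringspot virus, where the third probe had a mean intensity of 408.9 over the 4 spots in mature flowers. All 16 spots of its 4 probes were above background there (103.8 to 421.2), against 1 of 16 on day 3 (58.0) and none on days 1, 8 and 15. Beyond their share in the quantile normalisation, mature flowers serve only to place the contigs. The viruses' part in the differences of the contigs was not tested.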

How the results depend on the processing

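The count of 635 contigs past the threshold stayed within 1.5 times under most alternatives, with these exceptions. Normexp background correction called 337 (233 higher, 104 lower), the dimmer probe of contigs with 2 probes 337 (209 and 128, of 20477 tested), both probes together 253 (162 and 91, of 20450), and a 2-fold threshold 3195 (1934 and 1261). A raw signal of at least 500 left 22702 contigs and 137 lower calls in 453. Leaving out 1 array in turn gave 684 to 732 calls, 432 to 474 higher and 210 to 300 lower. These ranges say little about differences between samples, since the arrays of a day differed by no more than spot noise. Chosen after seeing the data, a fit with every array as a replicate called 670, all 635 among them.

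The differences of 48 named contigs were recomputed under up to 19 alternatives, and 826 of the values kept direction and side of the threshold, 60 newly passed, 6 no longer passed (4 of PATC145786 and 2 of PATC198032) and 5 changed sign. Of the 60, 48 came from fits with every array as a replicate and 12 from *PaAP1-2*, PATC119249, PATC127065 and PATC139333 under other settings. The changes of sign were *PaAP1-1* (-0.56), PATC145786 (-0.094) and PATC150470 (0.035) with the dimmer probe, and *PaSEP-2* with normexp (-0.028) and without the second day 3 array (-0.0026; 0.024 without the first).

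Defining organ contigs by 8-fold gave medians of -0.27 for sepal, -1.36 for lip, 0.54 for pollinia, 0.011 for column and 0.76 for pedicel contigs, with 1 lip, 4 column and 10 pedicel contigs higher and 10 pollinia, 2 column, 2 pedicel, 0 sepal and 0 petal contigs lower. The 75th percentile gave 0.63 for petal, 0.56 for pollinia, 0.29 for column and 0.81 for pedicel contigs, and quantile normalisation among the 4 arrays -0.95 for lip and 0.32 for pollinia contigs. Leaving out 1 array gave -0.016 to 0.29 for petal, -0.93 to -0.90 for lip and -0.42 to -0.41 for sepal contigs. It gave 0.26 to 0.30 for pollinia, 0.036 to 0.10 for column and 0.56 to 0.62 for pedicel contigs. The sign of the petal median, over 7 contigs, turned without the second day 1 array. The cause of these changes was not tested.

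Merged arrays can carry no block, so slide and scan were tried as random blocks with every array a replicate, which called 680 and 660. With scan batch as a fixed term the difference between the days cannot be estimated, and it was not run. No paired analysis was possible because the labels give the arrays no replicate numbers.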
